A study of Macaca mulatta with 8 samples.

Results

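Microglia are recognised by a small set of surface and cytoplasmic proteins and by the transcription factors that set and keep their lineage, and 9 such genes were followed here in cultured macaque microglia. They were chosen by gene symbol from the deposited count tables and comprise the surface genes CX3CR1, TMEM119 and GPR34, the cytoplasmic marker AIF1, the secreted protein gene OLFML3, and the transcription factor genes SPI1, RUNX1, MEF2C and SALL1. Of the 9 genes, 8 had a row among the 35432 genes of the tables, and OLFML3 was not analysed here because no row carried its symbol. After a filter on low counts, 6 of the 8 were among the 12131 genes tested.

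Primary microglia were isolated from the frontal subcortical white matter of 4 adult rhesus macaques, and each animal gave 1 library per condition. R07110 and R12016 were male, whereas R02046 and R14143 were female. Cells were kept for 8 days without passaging in medium with serum and macrophage colony-stimulating factor (10 ng/mL according to the sample labels, with a higher concentration in the study's methods). At day 7, ultrapure lipopolysaccharide (uLPS, 10 µg/mL), a ligand of Toll-like receptor 4, was added for 16 h, either alone or after 1 h of pre-incubation with 5 µM MRS2578, an antagonist of the UDP receptor P2RY6. The comparison asks how MRS2578 alters the transcriptome of uLPS-exposed microglia. The study describes this antagonist as selective for P2RY6 though not fully specific, and writes that its off-target effects remain to be tested. All 8 libraries were from uLPS-exposed, cultured cells, so that neither the effect of uLPS nor that of culture could be measured. The study's methods state that controls with the solvent DMSO accompanied MRS2578, but the labels do not say whether the libraries with uLPS alone are such controls.

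Microglia descend from yolk sac progenitors whose commitment to the macrophage lineage depends on PU.1, the protein encoded by SPI1, and on RUNX1. Their brain-specific identity is laid over this program by factors such as SALL1 and MEF2C under the influence of TGF-beta and other signals of the brain, and includes the fractalkine receptor CX3CR1, TMEM119 and the purinergic receptor P2RY12. Isolation and culture are known to lower many of these brain-dependent genes, while general macrophage genes are kept.

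The condition of each of the 2 R02046 libraries differs between the sample labels and the normalized values that the study lists for a subset of genes. These are the genes that the study called with edgeR at a false discovery rate under 0.05, with a model it does not describe. Each of the 8 columns of those values was proportional to the counts of 1 library, and 6 columns had the condition of the label, whereas the 2 columns of R02046 had the opposite one. The sources do not state which assignment holds. Results are therefore given for the conditions as deposited, after exchanging the R02046 libraries, and over the 3 donors without R02046. Exchanging the libraries turns the sign of each difference of that donor and leaves its levels untouched. Total counts ran from 9231109 to 32790348 per library, the lowest being a library of R02046.

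CX3CR1, one of the genes lowest in level, is shown with the sequence just upstream of its annotated start. The 250 bases before the 5′ end of the gene were read from the macaque genome Mmul_10 on the strand of transcription (chr2:94741489-94741738, minus strand).
CX3CR1: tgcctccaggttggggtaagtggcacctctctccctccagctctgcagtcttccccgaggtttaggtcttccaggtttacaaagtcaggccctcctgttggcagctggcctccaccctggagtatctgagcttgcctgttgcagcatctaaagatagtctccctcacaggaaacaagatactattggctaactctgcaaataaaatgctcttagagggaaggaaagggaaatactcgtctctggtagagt

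The windows of the same length before the 9 genes were searched for the PU.1-type core GAGGAA on both strands, and the CX3CR1 window held none, hence no capitals. In all, 3 of the 9 windows held GAGGAA, against 21.8% of the windows of 20769 genes. The window of AIF1 is among them, and its annotated model holds coding exons only, so that its window lies before the coding sequence. The RUNX core TGTGGT, present in 11.2% of all windows, the MEF2-type sequence TAAAAATA (4.54%) and the SMAD sequence GTCTAGAC (0.12%), searched on both strands, were in none of the 9. A match describes letters only, and binding was not measured.

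Of the 8 genes with a row, 6 were present at 1 CPM (counts scaled to library size by the TMM method) or more in all 8 libraries, namely SPI1, MEF2C, RUNX1, AIF1, GPR34 and SALL1. CX3CR1 reached 1 CPM in 1 library and TMEM119 in none. Thus both myeloid lineage factors and both late identity factors were detected, while the surface genes CX3CR1 and TMEM119 were at or near the limit of detection. In RNA from a whole culture, fewer cells of a type and less RNA per cell cannot be told apart.

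**Figure D1:**
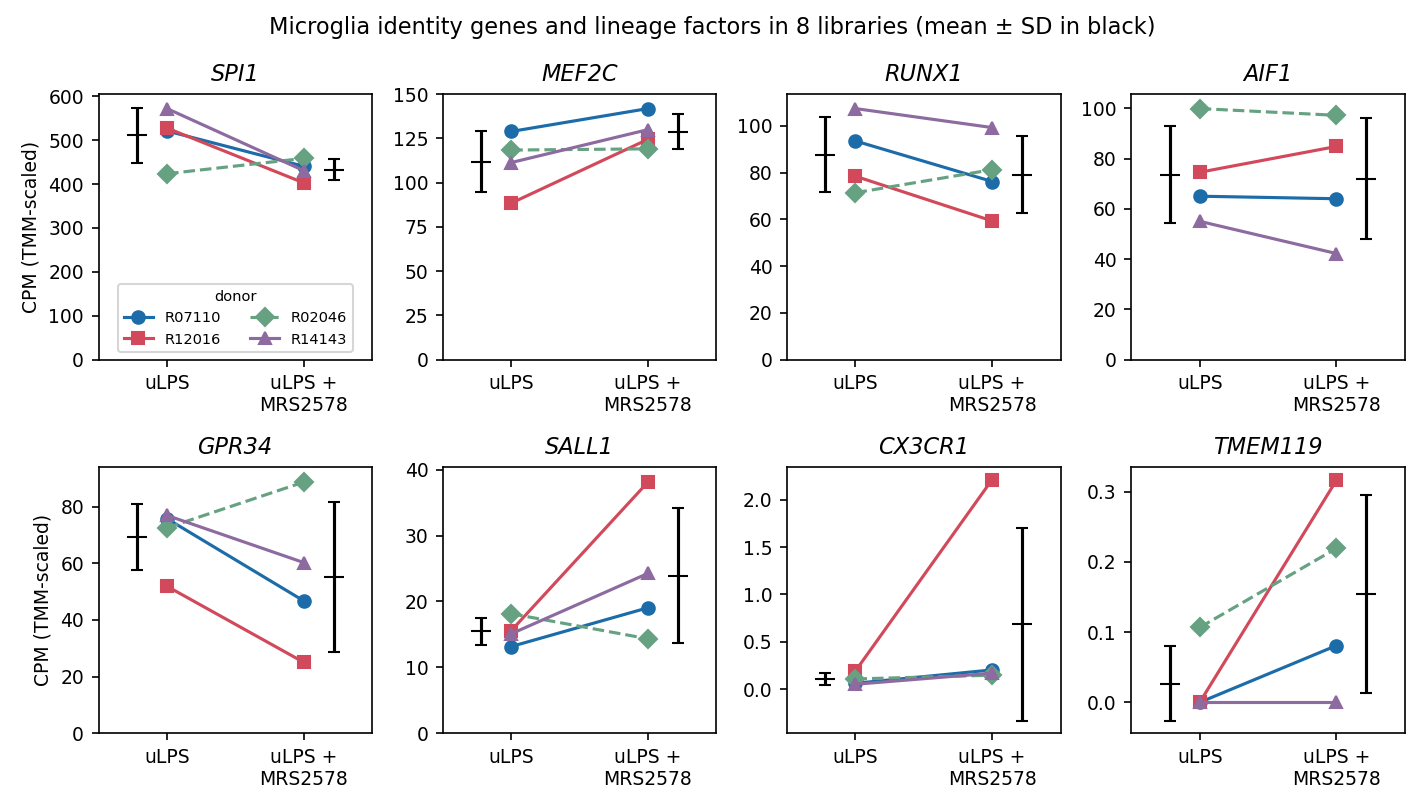
TMM-scaled CPM of the 8 genes with a row (y axis, one scale per gene) in each library, with a line joining the libraries of a donor as labelled (R02046 dashed) and the mean ± SD of 4 donors in black beside each condition. The conditions overlap for every gene, CX3CR1 reached 2.21 CPM in 1 library only, and the R02046 line slopes against the other 3 for SPI1, RUNX1, GPR34 and SALL1.

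To compare levels between genes, CPM were divided by the length of the merged exons in kb and averaged over the 8 libraries. The lengths are those of NCBI models matched by symbol, whereas the counts are per Ensembl gene. The levels per kb and their percentiles are therefore approximate for every gene. SPI1 had the highest level, 306 ± 39.1 CPM per kb (SD, n = 8 libraries), at percentile 98.5 of the 9527 genes with at least 1 CPM in every library. AIF1 followed with 164 ± 45.6 CPM per kb (percentile 96.9), a value divided by an annotated model of 444 bases that holds coding sequence without untranslated regions, which makes it less comparable with the other genes. SPI1 was above AIF1, and AIF1 above GPR34, in 8 of 8 libraries.

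GPR34 had 30.5 ± 10.0 CPM per kb (percentile 78.9), RUNX1 13.1 ± 2.47 (percentile 58.3) and MEF2C 12 ± 1.58 (percentile 55.7). RUNX1 and MEF2C could not be ordered: RUNX1 was the higher in 5 of 8 libraries, and with the longest annotated transcript as the length MEF2C was higher, at 17.7 against 13.4 CPM per kb. SALL1 had 3.64 ± 1.52 CPM per kb, at percentile 24.5 of the expressed genes. CX3CR1 and TMEM119 had 0.129 ± 0.243 and 0.0337 ± 0.0447 CPM per kb, and CX3CR1 was above TMEM119 in 6 of 8 libraries only.

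Next, the difference between uLPS with MRS2578 and uLPS alone was examined within each animal. Of the 6 tested genes, 0 passed an adjusted p of 0.05 with the deposited labels (quasi-likelihood test of edgeR, donor-blocked, Benjamini-Hochberg adjustment over all genes), where 0 of all 12131 genes (0%) passed. The study, by contrast, called genes at this adjusted threshold with edgeR. At an unadjusted p under 0.05 there were 624 genes, none of them among the 6. With the R02046 libraries exchanged, 0 of the 6 passed, where 75 genes (0.618%) did, and over 3 donors 0 of the 6 passed, where 0 of 12295 genes (0%) did. Unadjusted p-values were under 0.05 for 4 of the 6 genes with the exchange, where 1995 of all genes were, and for 5 of the 6 over 3 donors, where 1670 were. The median log2 fold change of the 6 genes was -0.11 with the labels, -0.15 with the exchange and -0.17 over 3 donors, and that of all genes was within 0.01 of 0 in each. All tests are between libraries of 4 animals, or 3, and each library has no technical repeat.

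With the labels, MEF2C alone of the 6 was higher with MRS2578 in all 4 donors, where 6.43% of all tested genes were, and none was lower in all 4, where 6.49% were. With the R02046 libraries exchanged, SALL1 was higher in all 4 donors, where 10.6% of all genes were, and SPI1, RUNX1 and GPR34 were lower in all 4, where 13.2% were. The conditions overlapped in CPM for each of the 6 genes with the labels, where they did not overlap for 1.08% of all genes. With the exchange they did not overlap for SALL1 and SPI1, where this held for 2.97% of all genes.

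**Figure D2:**
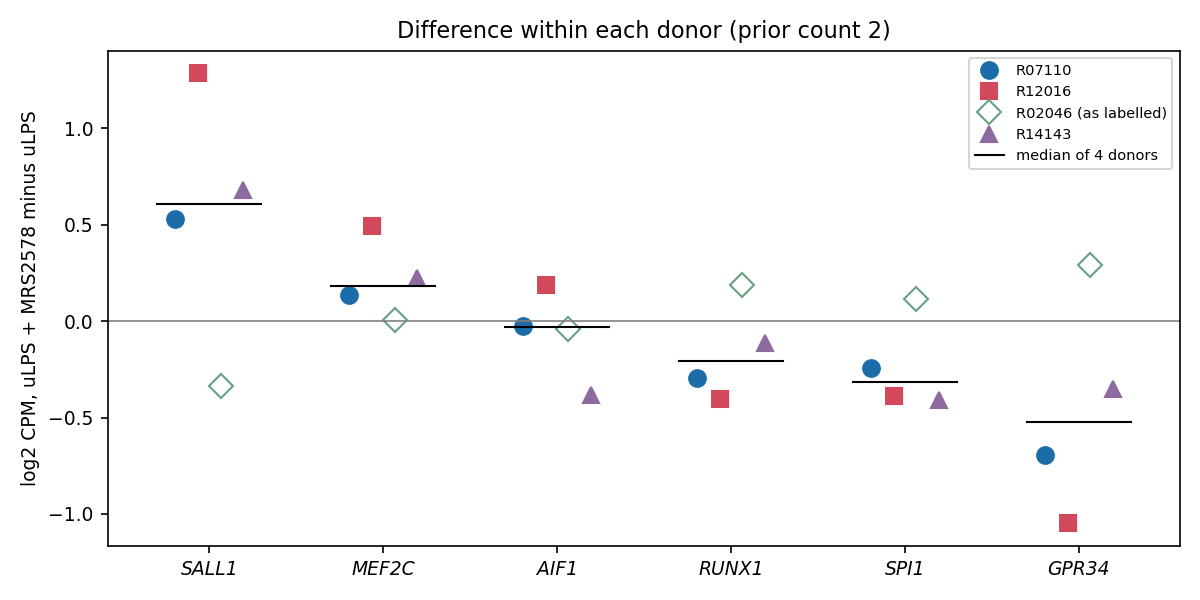
Difference in log2 CPM (prior count of 2) between uLPS with MRS2578 and uLPS alone within each of the 4 donors, with the deposited labels, for the 6 tested genes. Black bars are medians of 4 donors. R02046 (open symbols) lies on the other side of 0 from the remaining 3 donors for SALL1, RUNX1, SPI1 and GPR34, and the medians of AIF1 and MEF2C lie nearest to 0.

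SPI1 (ENSMMUG00000015606, chromosome 14, 18380559 to 18406148, plus strand, Mmul_10) encodes PU.1, the ETS-family factor that all macrophages require. In the order R07110, R12016, R02046 and R14143, it was at 521, 527, 423 and 572 CPM with uLPS and at 440, 403, 458 and 431 CPM with MRS2578. The libraries with MRS2578 were lower in 3 donors and higher in R02046, and their spread was narrow, with a mean of 433 ± 23.3 CPM against 511 ± 62.5 with uLPS (SD, n = 4). The log2 fold change was -0.23 (SE 0.12, 95% confidence interval -0.52 to 0.06, adjusted p = 0.878, edgeR). With the exchange of R02046 it became -0.29 (SE 0.09, adjusted p = 0.178), and it was -0.35 (SE 0.10, adjusted p = 0.257) over 3 donors.

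RUNX1 (ENSMMUG00000001649, chromosome 3, 11515197 to 11791957, plus strand) encodes the runt-domain factor of blood and macrophage development. It was at 93.5, 78.4, 71.4 and 107 CPM with uLPS in R07110, R12016, R02046 and R14143, and at 76.2, 59.3, 81.3 and 99.3 CPM with MRS2578. R14143 was the highest donor in both conditions. Donor means spanned 0.60 on the log2 scale, against a mean absolute difference within a donor of 0.25 and a largest of 0.40. The span was also above the mean absolute difference for AIF1, GPR34 and MEF2C, but not for SPI1 (0.17 against 0.29) and SALL1 (0.62 against 0.71). A span over 4 donors and a mean of differences are unlike measures. The log2 fold change was -0.16 (SE 0.12, 95% confidence interval -0.44 to 0.13, adjusted p = 0.897), -0.25 (SE 0.09, adjusted p = 0.221) with the exchange and -0.27 (SE 0.10, adjusted p = 0.344) over 3 donors (edgeR).

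MEF2C (ENSMMUG00000019836, chromosome 6, 85613564 to 85797689, minus strand) encodes a MADS-box factor that is enriched in microglia over other macrophages. In the same order of donors, it was at 129, 88.5, 118 and 111 CPM with uLPS and at 142, 125, 119 and 130.0 CPM with MRS2578. The difference was positive in each donor as labelled, but that of R02046 was 0.0083 on the log2 scale. The log2 fold change was 0.22 (SE 0.11, 95% confidence interval -0.04 to 0.47, adjusted p = 0.878), 0.21 (SE 0.10, adjusted p = 0.346) with the exchange and 0.28 (SE 0.11, adjusted p = 0.346) over 3 donors (edgeR), so this value depended little on the assignment of R02046.

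SALL1 (ENSMMUG00000017200, chromosome 20, 38235433 to 38250961, minus strand) encodes the zinc finger factor that, among brain and tissue macrophages, is largely particular to microglia. It had 13.2, 15.6, 18.1 and 15.1 CPM with uLPS in R07110, R12016, R02046 and R14143, and 19.0, 38.1, 14.3 and 24.3 CPM with MRS2578. The library of R12016 with MRS2578 was the highest, and the R02046 library with MRS2578 lay within the range of uLPS. The log2 differences within donors were 0.53, 1.29, -0.34 and 0.68.

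SALL1 had the largest positive log2 fold change of the 6 genes, 0.56 (SE 0.25, 95% confidence interval -0.03 to 1.14, adjusted p = 0.878). With the R02046 libraries exchanged it was 0.72 (SE 0.17, 95% confidence interval 0.34 to 1.10, adjusted p = 0.101), with means of 24.9 ± 9.23 CPM with MRS2578 and 14.5 ± 1.05 CPM with uLPS (SD, n = 4). Over 3 donors it was 0.83 (SE 0.18, adjusted p = 0.180, edgeR). The transcript was counted at 170 to 603 reads per library, well above the limit that a count of 0 allows.

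GPR34 (ENSMMUG00000022583, chromosome X, 41556145 to 41565125, plus strand) encodes a lysophosphatidylserine receptor that is abundant on microglia. Its levels, again in this order of donors, were 75.8, 51.9, 72.6 and 76.9 CPM with uLPS and 46.7, 25.0, 88.7 and 60.3 CPM with MRS2578. R12016 was the lowest donor in both conditions, and the labelled MRS2578 library of R02046 was the highest of all 8.

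GPR34 had the largest negative log2 fold change of the 6, -0.45 (SE 0.21, 95% confidence interval -0.94 to 0.04, adjusted p = 0.878). The exchange of R02046 gave -0.59 (SE 0.14, 95% confidence interval -0.90 to -0.28, adjusted p = 0.101), and 3 donors gave -0.69 (SE 0.15, adjusted p = 0.180, edgeR). With the exchange and without R14143, a setting not planned beforehand, its log2 fold change was -0.68 and its adjusted p 0.0314 (edgeR). In this fit 918 of 12128 genes passed, and SALL1 had an adjusted p of 0.052. No other setting had any of the 6 genes pass.

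AIF1 (ENSMMUG00000049735, chromosome 4, 137890117 to 137891696, minus strand) encodes IBA1, the calcium-binding protein used to stain microglia and other macrophages. The donors in the order used above had 65.0, 74.6, 99.9 and 55.0 CPM with uLPS and 64.0, 84.8, 97.2 and 42.2 CPM with MRS2578. The order of the donors was the same in both conditions, with R02046 highest and R14143 lowest. Donor means spanned 1.03 on the log2 scale, against a mean absolute difference of 0.16 within donors, and the differences had both signs. The log2 fold change was -0.06 (SE 0.11, 95% confidence interval -0.34 to 0.21, adjusted p = 0.949), -0.04 (SE 0.11, adjusted p = 0.884) with the exchange and -0.07 (SE 0.13, adjusted p = 0.863) over 3 donors (edgeR), and it turned to 0.04 with the labels when R14143 was left out.

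**Figure D3:**
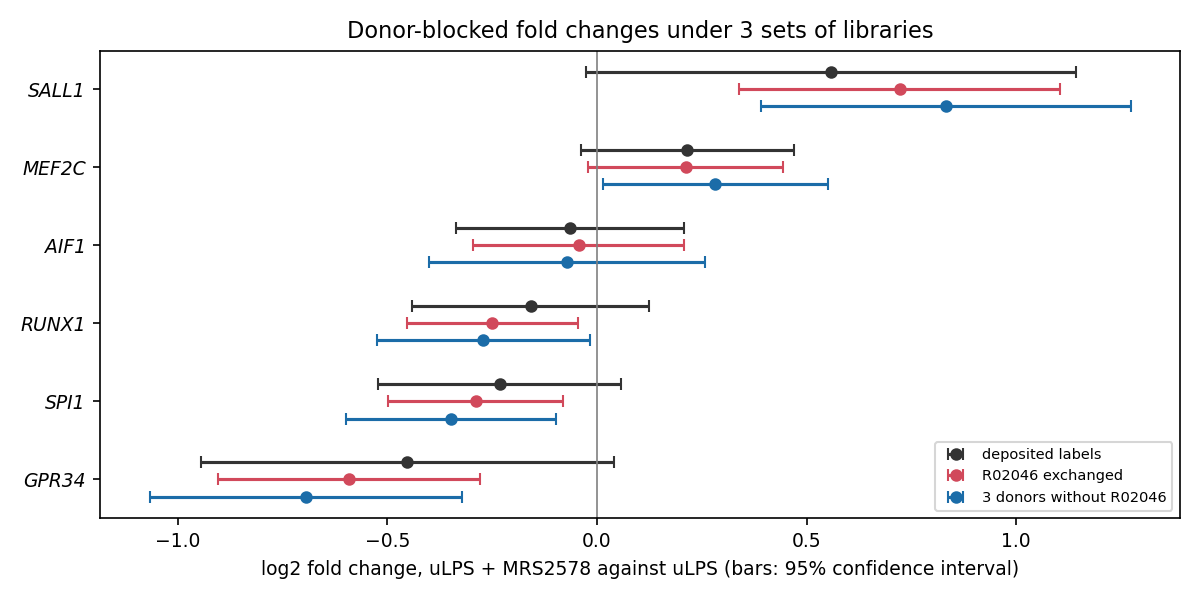
Log2 fold change of the 6 tested genes (points) with 95% confidence intervals (bars) from the donor-blocked fit, black for the deposited labels, red for the exchange of R02046 and blue for the 3 other donors. With the labels all 6 intervals span 0, and the intervals of SALL1, SPI1, RUNX1 and GPR34 lie on one side of 0 in both other fits, as does that of MEF2C over 3 donors, although no adjusted p in these 3 fits was below 0.101.

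CX3CR1 (ENSMMUG00000065286, chromosome 2, 94725701 to 94741488, minus strand), the receptor for the neuronal chemokine fractalkine, had 2, 3, 1 and 1 reads with uLPS in R07110, R12016, R02046 and R14143, and 5, 35, 2 and 3 reads with MRS2578. The library of R12016 with MRS2578 stood apart at 2.21 CPM, against 0.0508 to 0.202 CPM in the other 7. The limit that a count of 0 allows (3 reads) is 0.0914 to 0.32 CPM per library, for counting error only, so 6 of the 8 libraries were at or below this limit.

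TMEM119 (ENSMMUG00000050754, chromosome 11, 108214745 to 108223702, minus strand), a transmembrane protein that marks resident microglia, had 0, 0, 1 and 0 reads with uLPS and 2, 5, 3 and 0 reads with MRS2578 in the same order of donors. Its highest level was 0.316 CPM, again in the library of R12016 with MRS2578. Neither gene entered the main test, and in a fit of all 19045 genes with any count both had an adjusted p of 0.879 (edgeR). CX3CR1 was higher with MRS2578 in 4 of 4 donors as labelled and in 3 of 4 with the exchange, but on 1 to 5 reads in the 7 libraries other than that of R12016. TMEM119 was higher in 3 donors as labelled and in 2 with the exchange. No fold change is given for either gene, as a fitted value at such counts depends on the prior count.

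The R12016 library with MRS2578 was the highest of the 8 for SALL1, CX3CR1 and TMEM119 and the lowest for SPI1, RUNX1 and GPR34. The same library had the highest summed level of 6 neuronal markers, 9.68 CPM against 0.213 to 2.47 CPM in the other 7 libraries, most of it from the neurofilament gene NEFM at 8.85 CPM. NEFL reached at most 0.759 CPM in any library, and SNAP25, SYT1, RBFOX3 and GAD1 at most 0.427 CPM. The sum thus describes NEFM rather than the list of neuronal markers. The part of this library in the levels of the members was not tested. Without R12016, the log2 fold changes with the labels kept their signs but were nearer to 0 for SALL1 (0.33), MEF2C (0.13), GPR34 (-0.25), SPI1 (-0.17) and RUNX1 (-0.07), and farther from it for AIF1 (-0.14).

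The paralogs of the lineage factors were compared with them in level per kb. RUNX2 and RUNX3 had 1.71 and 1.38 CPM per kb, below RUNX1, whereas MEF2A had 21.4 ± 2.23 and MEF2D 13.1 ± 3.32 CPM per kb (SD, n = 8 libraries), and MEF2D could not be ordered against MEF2C. SALL3 was at 0.194 CPM per kb and was seen with 96 reads in the R12016 library with MRS2578, 14 in that of R07110, 7 in the labelled uLPS library of R02046 and 2 in the MRS2578 library of R14143, with 0 in the other 4. SALL4 had at most 1 read. With the labels, the log2 fold changes of RUNX2, RUNX3, MEF2A and MEF2D were -0.07, -0.30, -0.02 and -0.06, with adjusted p of 0.906 or above (edgeR). MEF2B, SPIB and SPIC were not analysed here.

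**Figure D4:**
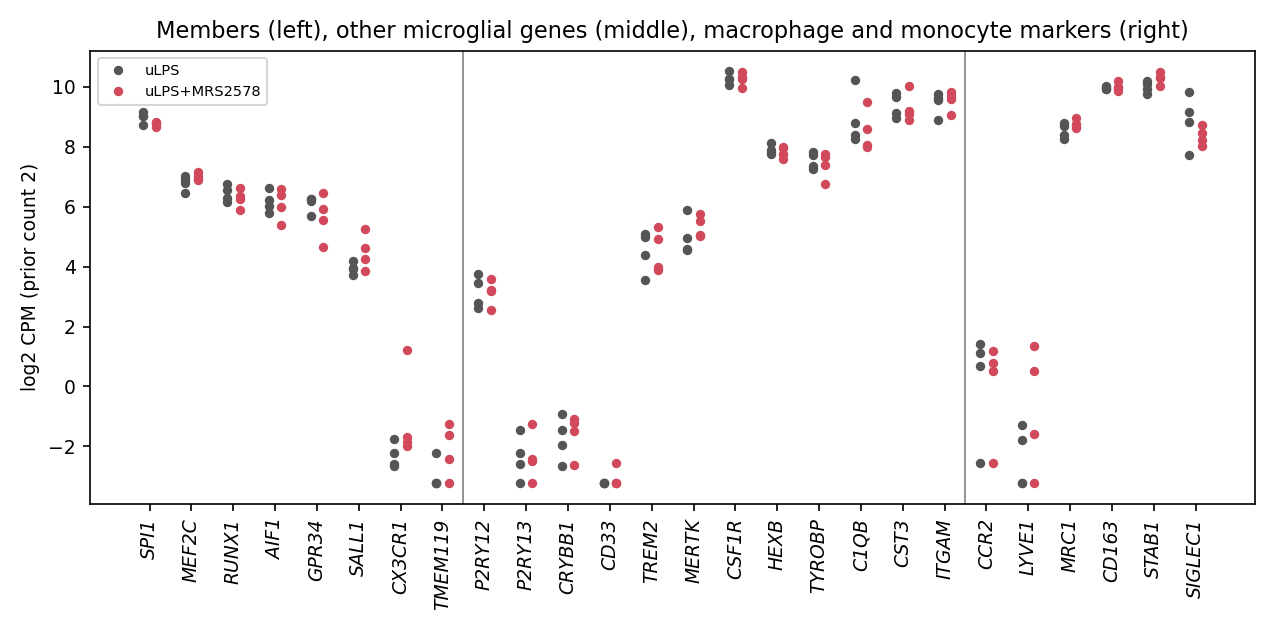
Log2 CPM (prior count of 2) in each library with uLPS (grey) and with uLPS and MRS2578 (red) for the 8 genes (left), other microglial genes (middle) and markers of border macrophages and monocytes (right). P2RY12 lies between 2.54 and 3.75, P2RY13, CRYBB1 and CD33 lie with CX3CR1 and TMEM119 at the foot of the plot, and MRC1, CD163 and STAB1 lie near or above SPI1.

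Among other genes of the microglial signature, 22 of the 25 with a row were at 1 CPM or more in every library. CSF1R, the receptor for macrophage colony-stimulating factor, was at 1007 to 1471 CPM and 306.0 CPM per kb, the level of SPI1. P2RY12 was at 5.70 to 13.3 CPM and 3.25 CPM per kb, close to SALL1. The 3 genes below 1 CPM were P2RY13 (at most 0.316 CPM), CRYBB1 (at most 0.427 CPM) and CD33 (at most 1 read). CX3CR1 and TMEM119 were thus not the only signature genes near the limit of detection. Of the 22 tested, 0 passed with the labels, with 9 positive and 13 negative log2 fold changes around a median of -0.02. With the exchange 1 passed, where 0.618% of all genes did. This was ENTPD1, an ectonucleotidase that degrades extracellular nucleotides, at -0.69 (SE 0.10, adjusted p = 0.0358, edgeR). Over 3 donors ENTPD1 was at -0.71 with an adjusted p of 0.140 (edgeR).

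Of 22 further lineage transcription factor genes with a row, 19 were tested (18 over 3 donors) and 0 passed in any of the 3 fits. Their median log2 fold change was -0.07 with the labels and -0.13 with the exchange. IRF8, which acts with PU.1, had 64.4 to 140.2 CPM and 26.6 CPM per kb, with a log2 fold change of -0.01 (adjusted p = 0.992, edgeR). Among genes at 1 CPM or more in every library, the largest median differences within donors were -0.70 for KLF4, -0.36 for LYL1 and -0.35 for BHLHE41. KLF4 ranged from -2.18 to 0.77 between donors.

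Because SALL1 and other identity genes depend on TGF-beta, ligands, receptors and effectors of that pathway were counted as well. All 19 had a row, 17 were tested (19 over 3 donors) and 0 passed in any of the 3 fits. The median of their log2 fold changes was -0.04 as labelled and -0.21 after the exchange. TGFBR1 was at 310 to 584 CPM, TGFB1 at 208 to 297 CPM and SMAD3 at 5.98 to 12.8 CPM. Among genes at 1 CPM or more in every library, the largest median differences within donors were -0.69 for the receptor ACVRL1, -0.60 for the activating integrin ITGB8, -0.42 for the ligand TGFB3 and -0.27 for the repressor SKIL. ITGB8 was at -1.04 (SE 0.21, adjusted p = 0.0748, edgeR) with the exchange and at -0.51 (SE 0.43, adjusted p = 0.901) with the labels.

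Markers of other cells were present to differing degrees. Of 12 markers of border macrophages and monocytes, 6 were at 1 CPM or more in every library, among them the scavenger receptors CD163 (943 to 1174 CPM) and STAB1 (873 to 1433 CPM) and the mannose receptor MRC1 (305 to 497 CPM). S100A8 and S100A9 had at most 1 read, LYVE1 at most 2.47 CPM, FCN1 at most 0.792 CPM and CCR2 at most 2.56 CPM. The summed level of this list was 2970 to 3252 CPM with uLPS and 2949 to 3591 CPM with MRS2578. Of the genes that point to microglia, SALL1, GPR34 and P2RY12 were thus detected in every library and CX3CR1, TMEM119, P2RY13 and CRYBB1 were at or near the limit. AIF1 and CSF1R are shared by other macrophages, whose markers MRC1, CD163 and STAB1 were abundant in every library.

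Summed levels, with uLPS and with MRS2578, were 239 to 407 and 224 to 304 CPM for oligodendrocyte markers (2 of 6 at 1 CPM or more in every library, CNP and MBP), 88.7 to 205 and 112 to 190 CPM for astrocyte markers (4 of 6), and 203 to 332 and 178 to 308 CPM for endothelial markers (3 of 5). They were 95.5 to 1197 and 209 to 533 CPM for mural and fibroblast markers (4 of 8), with the 1197 CPM in R14143 with uLPS. The endothelial sum came almost wholly from PECAM1, VWF and FLT1, whereas CLDN5 reached at most 0.162 CPM and CDH5 at most 0.202 CPM. It thus describes those genes rather than the list of endothelial markers. Lymphocyte markers summed to at most 0.518 CPM, with 2 of 7 at 0 in all libraries, and neutrophil markers to at most 9.87 CPM, with 1 of 5 at 0 in all libraries. The neutrophil sum mostly describes CXCR2, at up to 9.73 CPM, since CSF3R, MPO and CAMP reached at most 0.457 CPM. With the labels 0 marker genes passed, and with the exchange 1 did, where 0.618% of all genes did. This was the glutamate transporter SLC1A2 of astrocytes, at -1.22 (SE 0.15, adjusted p = 0.0328, edgeR). SLC1A2 was at -1.16 (adjusted p = 0.133) over 3 donors and at -0.58 (SE 0.46, adjusted p = 0.901, edgeR) with the labels. The other astrocyte markers tested did not pass with the exchange, with GFAP at 0.15, GJA1 at -0.09 and SLC1A3 at -0.19. The part of these cells in the levels of the 8 genes was not tested.

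Finally, genes whose profile over the 8 libraries was most like that of a member were sought for the 3 genes that varied more than the median tested gene (SD of log2 CPM 0.30), as the root mean square difference of centred log2 CPM. For SALL1 (SD 0.50) near profiles were those of USP30 at 0.17 and GPRASP2 at 0.21. For GPR34 (SD 0.58) the nearest were COX3 at 0.11, BDH1 at 0.13 and SPRED1 at 0.14. For AIF1 (SD 0.42) they were SMIM1 at 0.10, CHCHD7 at 0.10 and FAM20C at 0.11. SPI1, MEF2C and RUNX1 had an SD of 0.18, 0.20 and 0.28 and were less variable than the median gene. These are likenesses over 8 libraries of 4 animals that share their donors, picked from all tested genes, and carry no test.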

How the data were processed

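The authors deposited whole-number counts per Ensembl gene, without normalization, of unique reads within exons of Mmul_10. The submitters' processing notes list Trimmomatic 0.30, TopHat2 2.0.14, SAMtools 1.3 and HTSeq 0.6.1p1, whereas the study's methods describe fastp, STAR, SAMtools and HTSeq. The annotation release and strand setting are not given in the sources used here, so genes that overlap on opposite strands have uncertain counts.

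Here, counts were analysed in R 4.3.3 with edgeR 4.0.16 and DESeq2 1.42.0. Genes were kept by filterByExpr (minimum count 10), scaled by TMM, and tested with edgeR's quasi-likelihood test on a model of donor and condition, at a Benjamini-Hochberg adjusted p of 0.05. SE and 95% intervals are those implied by the test statistic, and log2 CPM use a prior count of 2. Libraries were paired by donor, since both come from 1 animal, and their deviations from the mean of their condition had correlations of 0.458 to 0.602 over genes. The test was first checked on simulated data.

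The members and gene lists were chosen with earlier results of these data known. The genes named are the members, their paralogs, P2RY12, CSF1R, IRF8, list genes with an adjusted p under 0.05 in any of the 3 fits and, where none passed, at most 4 with the largest median difference within donors. Genes of the lists named only for their level, the 3 below 1 CPM, the TGF-beta genes TGFBR1, TGFB1 and SMAD3 and the markers of other cells, were chosen after their values were seen. Some genes and sequences that these rules select are not reported here. Gene positions, lengths and sequence come from the NCBI annotation of Mmul_10. Alternatives were other scalings, tests and filters, no donor block, each donor left out, and the exchange of the R02046 libraries.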

Additional observations from a re-analysis of the deposited data

Results flagged for a closer look

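In 7 of 48 groups of 4 values, 1 value stood apart from the other 3 by Dixon's criterion, which chance meets in about 1 in 20 groups. This rate does not apply where the other 3 values are all 0, as for TMEM119 and SALL3 with uLPS, since the criterion is then always met. CX3CR1 was at 2.21 CPM in R12016 with MRS2578, against 0.146 to 0.202 CPM in the other donors, and TMEM119 at 0.107 CPM in R02046 with uLPS (1 read), against 0. SALL3 was at 6.07 CPM in R12016 with MRS2578, against 0 to 0.566 CPM, and at 0.747 CPM in the labelled uLPS library of R02046, against 0. IRF8 was at 130 CPM in R12016 with uLPS, against 72.0 to 79.6 CPM, and MEF2A at 124 CPM in R14143 with MRS2578, against 143 to 145 CPM. The difference within donors of RUNX2 was 0.607 on the log2 scale in R02046 as labelled, against -0.296 to -0.222 in the other donors.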

How the results depend on the processing

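Over 13 alternative settings, 77 of the 78 recomputed log2 fold changes of the 6 tested genes kept their direction and did not pass, and 1 turned, AIF1 without R14143 (0.0373). SALL1 ranged from 0.33 to 0.83, GPR34 from -0.69 to -0.25, SPI1 from -0.35 to -0.17, MEF2C from 0.13 to 0.28, RUNX1 from -0.27 to -0.07 and AIF1 from -0.14 to 0.0373, with adjusted p of at least 0.101. The count of genes past the threshold with the labels, 0, became 1 with DESeq2's Wald test, 5 with edgeR's likelihood ratio test and 75 with the R02046 libraries exchanged, and stayed 0 without the donor block. With the exchange it became 0 without the donor block and 39 with edgeR's earlier quasi-likelihood estimation, chosen after seeing the data. Leaving out a donor after the exchange gave from 0 (without R07110) over 5 (without R12016) to 918 (without R14143), with 0 to 1 of the 6 genes among them. The cause was not tested. With the longest transcript as the length, RUNX1 moved from place 4 to 5 and MEF2C from 5 to 4. Scalings moved the median difference of all genes to between -0.01 and 0.05. CX3CR1 and TMEM119 had too few reads for the filter, and their values rest on few reads or on 1 library.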
